A study of Mus musculus with 14 samples.

Results

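The genes described here are 10 members of the Slit, Robo and netrin guidance system, the receptors Robo1, Robo2, Robo4 and Unc5b, the ligands Slit2, Slit3, Ntn1 and Ntn4, and the intracellular partners Srgap1 and Srgap2. They were chosen by symbol from a table of 54524 mouse genes, and each symbol matched 1 row of it. RNA was sequenced from liver sinusoidal endothelial cells (LSECs), the fenestrated cells that line the smallest vessels of the liver, sorted from male Balb/c mice and not cultured. Their age was 10 to 12 weeks per the labels, and the study's methods give another range. LSECs of untreated, healthy mice (n = 4) were set beside LSECs taken on day 1 (n = 2), day 3 (n = 4) and day 7 (n = 4) after 1 intraperitoneal injection of carbon tetrachloride (CCl4), a compound toxic to hepatocytes, at 0.5 µL per g body weight in mineral oil. The healthy mice had no injection, so CCl4 and the oil it was given in cannot be told apart. Further day 1 samples were left out by the study for low RNA integrity, and the labels do not say whether a sample came from 1 animal, so the p-values measure the spread between these samples.

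Slits are large secreted proteins that bind Robo receptors on neighbouring cells and were first known for repelling growing axons. Robo1 and Robo2 pass the signal to srGAP proteins, which bind Robo tails and switch off small GTPases. Robo4 is the Robo of endothelial cells and is known to bind the netrin receptor Unc5b and to limit vascular leak. Netrins are laminin-related ligands of UNC5 and DCC family receptors, and netrin-4 is a component of basement membranes.

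Total counts per library ranged from 46401496 to 103912264, and all 10 genes passed the filter on low counts. Levels are given as counts per 1000000 on the TMM-scaled library size (CPM), and 3 counts, the floor for detection, equal 0.0289 to 0.0647 CPM before scaling, which covers counting error only. All 9 LSEC markers were at or above that floor in every library, and their summed CPM was 14610 to 18460 in healthy LSECs, 11450 to 14140 on day 1, 9647 to 12760 on day 3 and 8726 to 12570 on day 7. They did not move together, since on day 3 Clec4g, Fcgr2b, Oit3 and Kdr lay below every healthy library, Lyve1 lay above, and Stab1, Stab2, Pecam1 and Cdh5 overlapped. Cells had been gated as CD32+ and F4/80- without UV autofluorescence, a property of stellate cells, and per the methods also as CD45-. Even so Adgre1, which encodes F4/80, was at 10.2 to 159 CPM and Ptprc, which encodes CD45, at 36.9 to 270 CPM over the 14 libraries. Day 3 replicates 1 and 2 stood apart with 34678 and 34768 genes with a count, against 22986 to 30735 in the other libraries. The day 3 fold changes of the members are therefore also given without them. That setting rests on day 3 replicates 3 and 4 alone, and replicate 4 had the fewest genes with a count of all libraries, 22986. Fewer cells of a type and less RNA per cell cannot be told apart in such bulk samples.

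All 10 are protein-coding genes. On GRCm38 in GENCODE vM21, Robo2 (ENSMUSG00000052516) lies at chr16:73891839-74411825 on the minus strand and Robo1 (ENSMUSG00000022883) at chr16:72308306-73046095 on the plus strand. Robo4 (ENSMUSG00000032125) lies at chr9:37401897-37415115 (+), Slit3 (ENSMUSG00000056427) at chr11:35121224-35708507 (+), Ntn1 (ENSMUSG00000020902) at chr11:68209364-68400823 (-) and Ntn4 (ENSMUSG00000020019) at chr10:93640681-93747207 (+).

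In healthy LSECs the 10 genes spanned more than 3 orders of magnitude. Because Slit and Robo transcripts differ in length, levels of different genes are compared here only as CPM per kilobase of transcript. On that scale Robo4 was highest at 91.6 ± 7.58 (SD, n = 4), followed by Ntn4 at 72.1 ± 7.19. The ranges of Robo4 and Ntn4 did not overlap. Srgap2 stood at 13.7 ± 1.05 CPM per kilobase. Srgap1 (5.85 ± 0.331) and Robo1 (5.60 ± 0.605) came next and did not differ beyond their spread. Unc5b was at 1.05 ± 0.076 and Ntn1 at 0.327 ± 0.0648 CPM per kilobase. Robo2 (0.0947 ± 0.0313), Slit2 (0.0659 ± 0.0204) and Slit3 (0.0475 ± 0.0203) closed the order, each within the spread of its neighbour. The healthy LSEC libraries thus held Robo4, Robo1 and srGAP transcripts at much higher levels than Slit transcripts.

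**Figure D1:**
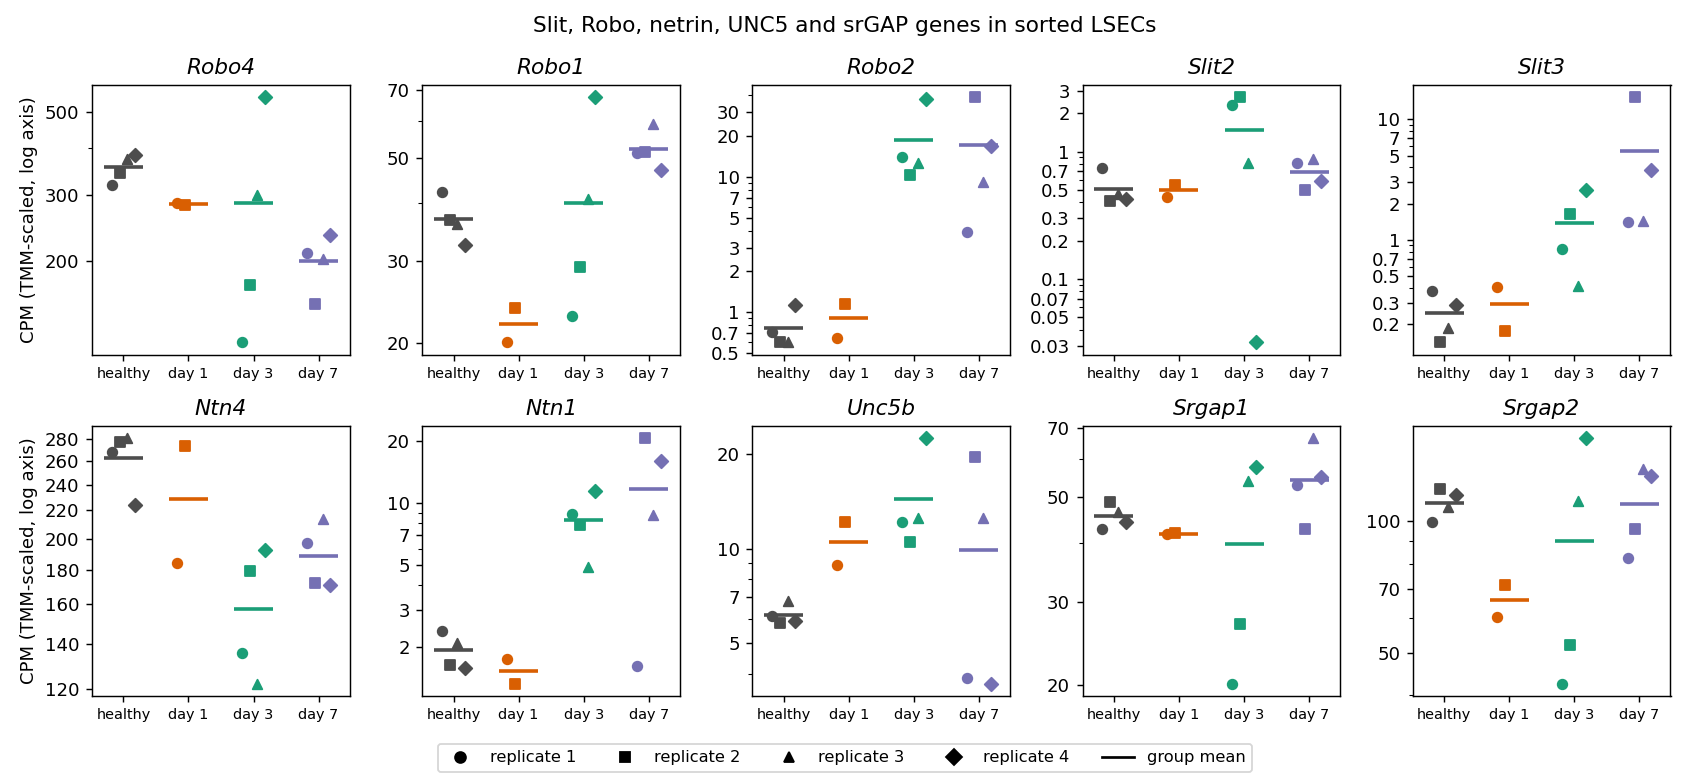
CPM of each of the 10 genes (log axis, a separate scale per gene) in every library, by group, with replicate numbers as marker shapes and the group mean as a line. Robo2 lies at 0.599 to 1.13 CPM in healthy LSECs and at 10.3 to 37.6 CPM on day 3, while the 4 day 3 libraries spread widely for Robo4, from 121 to 548 CPM.

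Against healthy LSECs, none of the 10 genes passed the test on day 1, 3 passed on day 3 and 3 on day 7 (edgeR's quasi-likelihood test, Benjamini-Hochberg adjusted p under 0.05 over all 26626 genes tested). On day 1 the share of all genes that passed was 4.06%. Of the members 1, Robo1, was under an unadjusted p of 0.05, beside 17.9% of all genes. DESeq2 called 0 members, beside 2839 of the 26626 genes. Limma-voom with sample quality weights called 2, Robo1 and Srgap2, beside 4308 of the 26626 genes. On day 3 Robo2 and Ntn1 rose and Ntn4 fell, beside 7.19% of all genes. On day 7 Robo2, Slit3 and Ntn1 rose, beside 3.18% of all genes. With day 3 replicates 1 and 2 left out, a setting chosen after seeing the data, 1 member passed on day 1 (Robo1), 1 on day 3 (Robo2) and 4 on day 7 (Robo4 beside the 3 above). Of the 24856 genes tested in that setting, 1952, 2417 and 2306 passed on days 1, 3 and 7. The median log2 fold change of the 10 genes was -0.16 on day 1, 0.67 on day 3 and 0.47 on day 7, and that of all genes tested was -0.03, 0.18 and 0.02. These 3 comparisons share the healthy libraries.

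Of the 10 genes, 5 had groups that did not overlap in each comparison with healthy LSECs, which was the case for 37.9% of all genes on day 1, 14.4% on day 3 and 20.8% on day 7. On day 1 these were Unc5b, higher, and Robo1, Robo4, Srgap1 and Srgap2, lower. On day 3 they were Robo2, Slit3, Unc5b and Ntn1, higher, and Ntn4, lower. On day 7 they were Robo1, Robo2 and Slit3, higher, and Robo4 and Ntn4, lower. From day 1 to day 3 Robo2 alone passed, beside 2.54% of all genes. From day 3 to day 7 none of the 10 passed in edgeR, beside 1.77% of all genes. Slit3 was the 1 member under an unadjusted p of 0.05, beside 18.8% of all genes. DESeq2 called 0 of the 10 and limma-voom 4, beside 1783 and 6002 of 26626 genes.

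**Figure D2:**
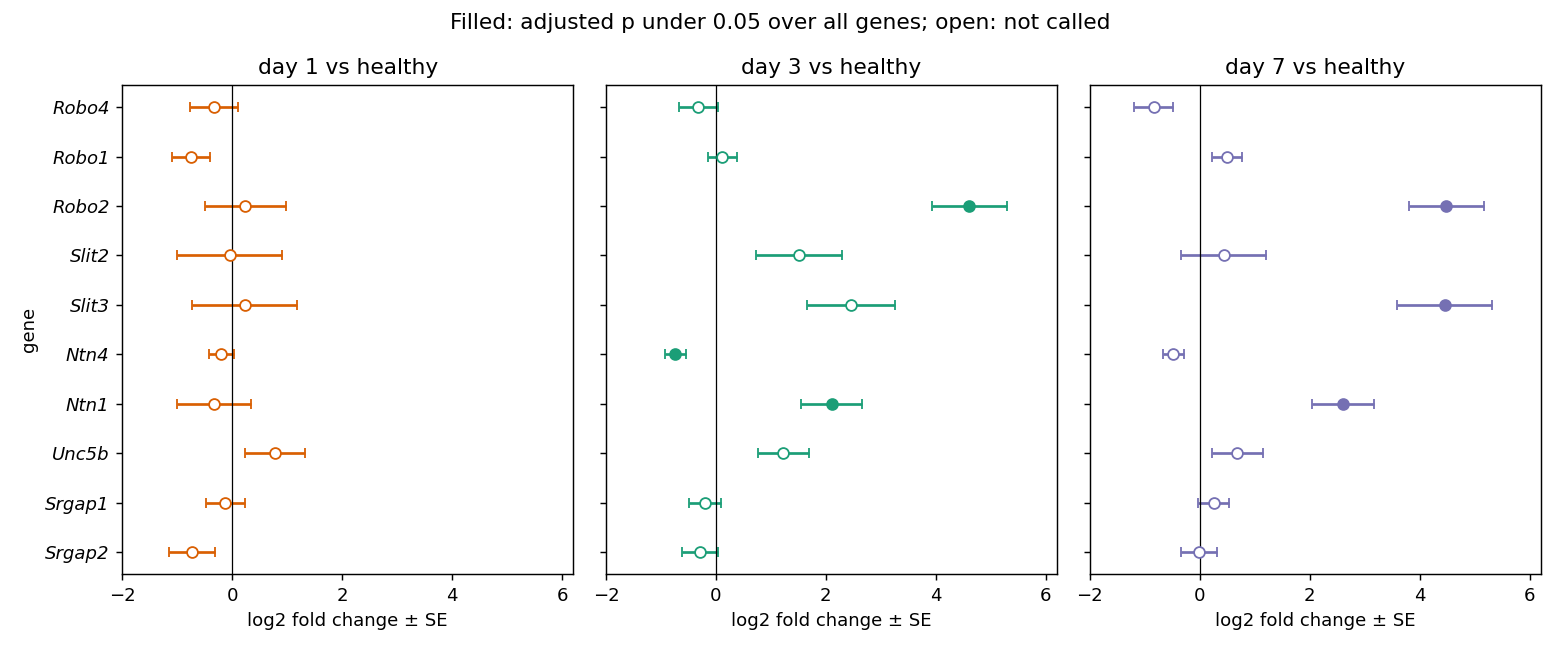
Log2 fold change against healthy LSECs with its standard error for each of the 10 genes on days 1, 3 and 7, with filled points for genes that passed the test over all genes. Robo2 is at 4.61 and 4.49 on days 3 and 7, Slit3 and Ntn1 lie to the right of 0 at both times, and Ntn4 lies to the left.

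Robo4 was read at 319, 343, 374 and 383 CPM in healthy LSECs and at 286 and 282 CPM on day 1. The day 3 values were 121, 172, 300 and 548 CPM in replicates 1 to 4, and those of day 7 were 210, 153, 202 and 234 CPM. All 4 day 7 libraries lay below the lowest healthy library, and the day 3 libraries lay on both sides of the healthy range. The log2 fold change on day 7 was -0.83 ± 0.35 (SE) and did not pass (edgeR adjusted p = 0.201). It passed in limma-voom (adjusted p = 0.00547), in an edgeR fit of only these 2 groups (0.0184) and without day 3 replicates 1 and 2 (0.0307), at differences of -0.81 to -0.84. Those fits called 7047 of 26626, 3156 of 21591 and 2306 of 24856 genes on day 7. The edgeR fit of all 14 libraries called 846 of 26626. On day 3 the log2 fold change of Robo4 was -0.32 ± 0.35 (edgeR adjusted p = 0.651). Without its replicate 4 the day 3 difference was -0.92 and passed (edgeR adjusted p = 0.0483). That fit called 3314 of 26443 genes on day 3. Limma-voom also called Robo4 on day 3, at -1.09 (adjusted p = 0.0023), beside 7265 of 26626 genes. The edgeR fit of all 14 libraries called 1915 of 26626 on day 3. Without day 3 replicates 1 and 2 the day 3 difference of Robo4 was 0.23.

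The annotated start regions of 4 members are printed because these members carry the results. Robo4 and Ntn4 were the highest of the 10 genes per length in healthy LSECs, and Robo2 and Slit3 had the largest rises. Sequences are RefSeq promoter windows on GRCm38.p6 from 250 bases before to 50 bases after the start, 5′ to 3′ on the gene's strand, at chr9:37401722-37402021 (+, Robo4), chr10:93640799-93641098 (+, Ntn4), chr16:74411776-74412075 (-, Robo2) and chr11:35121206-35121505 (+, Slit3). Capitals mark the letters GGGCGG or their reverse complement CCGCCC, the core of the Sp1 motif.
Robo4: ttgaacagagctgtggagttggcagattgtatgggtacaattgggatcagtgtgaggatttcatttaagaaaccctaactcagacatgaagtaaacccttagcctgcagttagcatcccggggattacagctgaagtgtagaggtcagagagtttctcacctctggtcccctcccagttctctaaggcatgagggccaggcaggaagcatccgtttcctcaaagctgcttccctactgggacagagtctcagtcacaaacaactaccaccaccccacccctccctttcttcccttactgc
Ntn4: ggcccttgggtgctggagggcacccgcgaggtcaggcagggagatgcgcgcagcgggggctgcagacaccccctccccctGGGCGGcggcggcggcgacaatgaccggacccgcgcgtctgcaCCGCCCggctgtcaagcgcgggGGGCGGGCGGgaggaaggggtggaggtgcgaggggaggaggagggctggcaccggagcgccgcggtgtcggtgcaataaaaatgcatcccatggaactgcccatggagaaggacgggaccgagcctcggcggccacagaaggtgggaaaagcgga
Robo2: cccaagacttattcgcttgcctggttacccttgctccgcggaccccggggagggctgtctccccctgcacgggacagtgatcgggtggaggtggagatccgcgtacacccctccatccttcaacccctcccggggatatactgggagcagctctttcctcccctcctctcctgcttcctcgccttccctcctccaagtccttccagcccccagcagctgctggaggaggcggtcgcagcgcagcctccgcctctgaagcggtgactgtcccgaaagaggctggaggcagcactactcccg
Slit3: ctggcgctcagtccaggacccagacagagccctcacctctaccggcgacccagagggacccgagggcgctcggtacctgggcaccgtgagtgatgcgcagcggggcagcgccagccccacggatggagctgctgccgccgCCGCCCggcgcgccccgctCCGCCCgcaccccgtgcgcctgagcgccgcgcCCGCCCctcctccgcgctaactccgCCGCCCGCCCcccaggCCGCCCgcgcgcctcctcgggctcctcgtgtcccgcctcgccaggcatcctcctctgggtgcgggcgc
The Sp1 letters occurred 0 times in the Robo4 and Robo2 windows, 4 times in that of Ntn4 and 6 times in that of Slit3, with overlapping matches counted. They were present in 35.7% of all 32851 RefSeq promoter windows of this length. G and C made up 50.3% of the Robo4 window, 72.0% of Ntn4, 65.0% of Robo2 and 78.3% of Slit3, against a median of 52.7% over all windows. No match of the ETS letters CCGGAA, the AP-1 letters TGANTCA or the TATA letters TATAAA was in these 4 windows on either strand, letters that 14.9%, 7.81% and 13.6% of all windows hold. Promoter windows were found for 9 of the 10 members. Robo2 has 3 of them, and the one shown surrounds the 5′ end of the gene model used here.

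Robo1, the widely expressed Robo, was read at 42.2, 36.8, 36.1 and 32.6 CPM in healthy LSECs. It was at 20.1 and 23.9 CPM on day 1 and at 51.3, 51.5, 59.2 and 47.2 CPM on day 7. The day 1 libraries were all lower and the day 7 libraries all higher than the healthy ones. Neither difference passed the test, with log2 fold changes of -0.75 ± 0.34 on day 1 (edgeR adjusted p = 0.265) and 0.50 ± 0.27 on day 7 (edgeR adjusted p = 0.299). Both passed in limma-voom (adjusted p = 0.00829 and 0.0213) and in edgeR fits of only the 2 groups compared (0.0231 and 0.0290), and the day 1 difference also without day 3 replicates 1 and 2 (0.0406). On days 1 and 7 limma-voom called 4308 and 7047 of 26626 genes, and the fits of 2 groups 2327 of 22771 and 3156 of 21591. The fit without day 3 replicates 1 and 2 called 1952 of 24856 on day 1. The edgeR fit of all 14 libraries called 1080 and 846 of 26626. On day 3 Robo1 was at 22.9, 29.1, 40.9 and 67.7 CPM, with replicates 1 and 2 lowest as for Robo4. The fold change of Robo1 on day 3 was 0.12 ± 0.27 on the log2 scale (edgeR adjusted p = 0.837), a range of values that overlapped the healthy libraries on both sides. It was 0.53 without day 3 replicates 1 and 2 (edgeR adjusted p = 0.0999).

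Robo2, a Slit receptor best known from neurons and the developing kidney, had the largest change of the 10. It was at 0.719, 0.599, 0.603 and 1.13 CPM in healthy LSECs, which stood for 51 to 99 counts per library, and at 0.646 and 1.16 CPM on day 1. On day 3 it reached 13.9, 10.3, 12.7 and 37.6 CPM and on day 7 3.89, 38.6, 9.17 and 16.9 CPM. No library of day 3 or day 7 overlapped the healthy or the day 1 libraries. The log2 fold change was 4.61 ± 0.68 on day 3 (24.4-fold, edgeR adjusted p = 0.00268) and 4.49 ± 0.68 on day 7 (22.4-fold, edgeR adjusted p = 0.00612). On day 1 it was 0.24 ± 0.73 (edgeR adjusted p = 0.929, 95% interval -1.20 to 1.68). The rise of Robo2 from day 1 to day 3 was 4.37 ± 0.92 on the log2 scale (edgeR adjusted p = 0.0248). With either day 1 library left out that rise no longer passed (edgeR adjusted p = 0.362 without replicate 1 and 0.222 without replicate 2). Against healthy LSECs the day 3 and day 7 rises of Robo2 passed with each of the 14 libraries left out in turn, with log2 fold changes of 3.92 to 4.83 and 3.71 to 4.82. The day 3 rise was 5.01 without day 3 replicates 1 and 2 together (edgeR adjusted p = 0.00461).

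Robo4 took a smaller part of the Robo transcripts on days 3 and 7. As a share of the CPM per kilobase of Robo1, Robo2 and Robo4 together, Robo4 made up 92.7% to 95.1% in healthy LSECs and 95.1% to 95.9% on day 1. It made up 85.7% to 90.9% on day 3 and 75.8% to 86.7% on day 7, below every healthy library. Robo2 made up 0.0733% to 0.135% in healthy LSECs, 1.85% to 4.75% on day 3 and 0.774% to 9.22% on day 7. Robo4 transcripts remained the most abundant of the Robo transcripts in every library. The shares rest on the same counts as the tests above and were not tested.

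**Figure D3:**
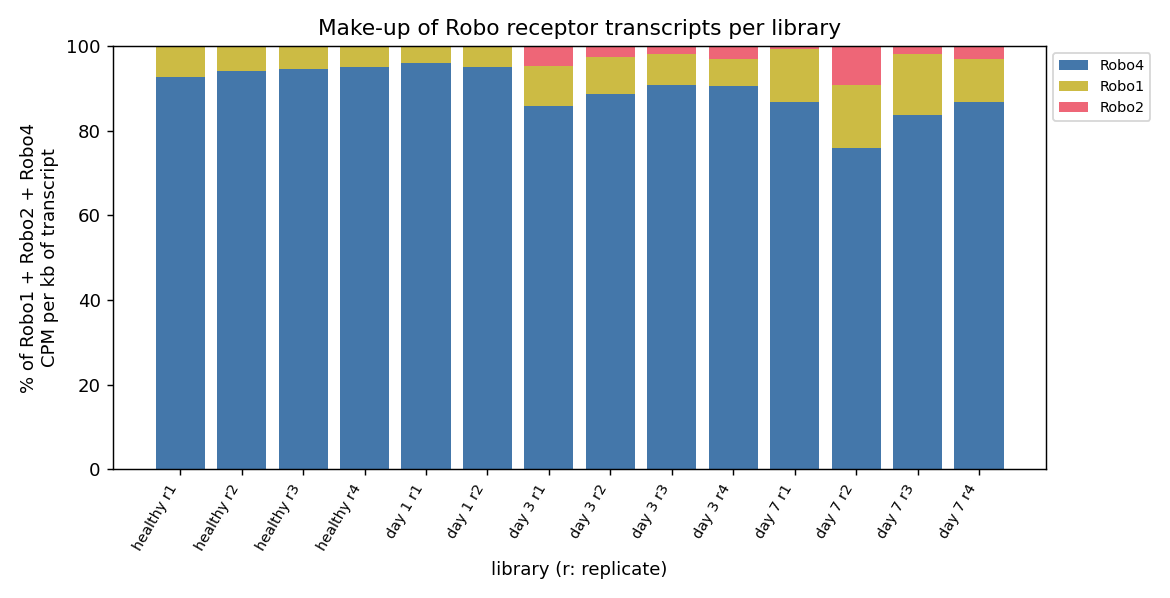
Share of Robo4, Robo1 and Robo2 in the summed CPM per kilobase of transcript of these 3 genes (percent, stacked bars from 0 to 100), 1 bar per library. Robo4 takes 92.7% or more in each healthy and day 1 library and 75.8% to 90.9% on days 3 and 7.

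The Slit ligands were near the bottom of the range. Slit3 was at 0.379, 0.141, 0.187 and 0.286 CPM in healthy LSECs, 12 to 38 counts per library, and at 0.407 and 0.176 CPM on day 1. Its day 3 values were 0.835, 1.63, 0.415 and 2.61 CPM, and its day 7 values 1.41, 15.3, 1.43 and 3.84 CPM. All libraries of days 3 and 7 lay above all healthy libraries, and day 7 replicate 2 lay above every other library. Slit3 rose on day 7 by 4.46 ± 0.87 on the log2 scale (22.0-fold, edgeR adjusted p = 0.0174). On day 3 the difference was 2.46 ± 0.80 and did not pass (edgeR adjusted p = 0.0835). DESeq2 called it (adjusted p = 0.0109), beside 3791 of 26626 genes against 1915 in edgeR. It was 2.58 without day 3 replicates 1 and 2 (edgeR adjusted p = 0.112). Without day 7 replicate 2 the day 7 difference was 3.16 on the log2 scale and still passed (edgeR adjusted p = 0.0475), and the day 3 difference of 2.46 passed as well (edgeR adjusted p = 0.0352). The day 7 call was lost without healthy replicate 1, 2 or 3 (edgeR adjusted p = 0.0564, 0.0643 and 0.0641).

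Slit2, a ligand of Robo1 and Robo2, was at 0.749, 0.411, 0.468 and 0.424 CPM in healthy LSECs and at 0.443 and 0.550 CPM on day 1. Day 3 brought values of 2.33, 2.67, 0.819 and 0.0319 CPM, the last from 3 counts in replicate 4, and day 7 values of 0.811, 0.504, 0.882 and 0.591 CPM. Day 3 replicates 1 and 2, the libraries with the most genes detected, were highest and replicate 4, the library with the fewest, was lowest. The log2 fold change on day 3 was 1.51 ± 0.78 (edgeR adjusted p = 0.285). It was 1.81 and passed without day 3 replicate 4 (edgeR adjusted p = 0.0145), and it was -0.29 without replicates 1 and 2. Limma-voom called it at 2.03 (adjusted p = 0.0109). On day 3 the fit without replicate 4 called 3314 of 26443 genes and limma-voom 7265 of 26626. The edgeR fit of all 14 libraries called 1915 of 26626. Slit3 made up 33.8% to 50.2% of the CPM per kilobase of Slit2 and Slit3 in healthy LSECs and 34.7% to 99.2% on day 3. On day 7 it made up 70.8% to 97.8%, above every healthy library.

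Among the netrins, Ntn4 and Ntn1 went opposite ways. Ntn4, the basement membrane netrin, was at 269, 277, 281 and 224 CPM in healthy LSECs and at 184 and 274 CPM on day 1. On day 3 it was at 136, 179, 122 and 193 CPM and on day 7 at 197, 172, 214 and 171 CPM. Every library of days 3 and 7 was below every healthy library, and 1 of the day 1 libraries was within the healthy range. Ntn4 fell by 0.74 ± 0.19 on the log2 scale on day 3 (1.67-fold lower, edgeR adjusted p = 0.0313). The day 7 difference of -0.48 ± 0.19 did not pass (edgeR adjusted p = 0.166). It passed in limma-voom at -0.54 (adjusted p = 0.0142) and in an edgeR fit of only these 2 groups at -0.48 (adjusted p = 0.0395). Those fits called 7047 of 26626 and 3156 of 21591 genes on day 7, against 846 of 26626 in the edgeR fit of all 14 libraries. The day 3 call was lost without healthy replicate 1, 2 or 3 (edgeR adjusted p = 0.0773, 0.0830 and 0.0831) and without day 3 replicates 1 and 2 together (edgeR adjusted p = 0.0518), at differences of -0.71 to -0.76, and by library size alone at -0.69 (0.0732). Ntn4 belongs to a healthy LSEC gene list that the study built partly on these samples, so its fall is not independent evidence of that list's direction. The LSEC markers also summed lower in every day 3 and day 7 library than in the healthy ones. Of the 9 markers 4 lay below every healthy library at each of these times, 1 lay above on day 3 (Lyve1, 779 to 1057 against 271 to 534 CPM) and the others overlapped. Their part in the values of Ntn4 and Robo4 was not tested.

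Ntn1, the classic axon guidance netrin, was at 2.38, 1.63, 2.09 and 1.58 CPM in healthy LSECs and at 1.73 and 1.32 CPM on day 1. On day 3 it was at 8.89, 7.82, 4.90 and 11.4 CPM, all above the healthy libraries. On day 7 it was at 1.61, 20.7, 8.75 and 16.0 CPM, where replicate 1 lay within the healthy range and the other 3 lay above it. Ntn1 rose by 2.10 ± 0.56 on the log2 scale on day 3 (4.30-fold, edgeR adjusted p = 0.0368) and by 2.61 ± 0.57 on day 7 (6.12-fold, edgeR adjusted p = 0.0274). The day 3 call was kept in 3 of the 14 fits that left out 1 library, and the adjusted p over all 14 ran from 0.00482 to 0.0979 at log2 fold changes of 1.81 to 2.22. It was lost without any of the 4 healthy libraries (edgeR adjusted p = 0.0766, 0.0979, 0.0844 and 0.0969 without replicates 1 to 4), without day 1 replicate 1 or 2 (0.0629 and 0.0631), without day 3 replicate 1, 2 or 4 (0.0731, 0.0592 and 0.0564) and without day 7 replicate 3 or 4 (0.0556 and 0.0572). The day 7 call was lost without healthy replicate 1, 2 or 3 (edgeR adjusted p = 0.0748, 0.0872 and 0.0798) or day 7 replicate 2 or 4 (0.0952 and 0.0668). The day 3 call was also lost with no filter on low counts (edgeR adjusted p = 0.0538) and, at 2.07, without day 3 replicates 1 and 2 together (0.0767). The direction of Ntn1 was the same in each of these fits.

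Unc5b, the netrin receptor that also binds Robo4, was at 6.12, 5.83, 6.80 and 5.89 CPM in healthy LSECs. It was at 8.86 and 12.2 CPM on day 1 and at 12.1, 10.5, 12.6 and 22.4 CPM on day 3, so that all 6 libraries of those days were above the healthy ones. On day 7 it was at 3.88, 19.6, 12.5 and 3.72 CPM, with 2 libraries below and 2 above the healthy range. The log2 fold change of Unc5b was 0.77 ± 0.55 on day 1 (edgeR adjusted p = 0.527), 1.22 ± 0.47 on day 3 (edgeR adjusted p = 0.135) and 0.69 ± 0.46 on day 7 (edgeR adjusted p = 0.415). None of these passed. The 95% interval of the day 3 difference was 0.31 to 2.14, and the difference was 1.48 without day 3 replicates 1 and 2 (edgeR adjusted p = 0.117). Markers of large vessel endothelium, 10 genes all detected in every library, summed to 704 to 960 CPM in healthy LSECs, 1291 to 1618 on day 1, 574 to 1540 on day 3 and 597 to 814 on day 7. They went different ways on day 1, where Vwf, Ly6a, Selp and Rspo3 lay above every healthy library, Cd34, Efnb2 and Ackr1 lay below and 3 overlapped, and Ly6a alone stood for 642 to 906 CPM of the sum. On day 3 none lay above and Gja5 and Sox17 lay below every healthy library. Their part in the values of Unc5b was not tested.

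The srGAP genes varied more among day 3 libraries than between groups. Srgap1 was at 42.7, 48.6, 46.5 and 44.3 CPM in healthy LSECs, 41.7 and 41.9 CPM on day 1, 20.1, 26.9, 54.0 and 57.9 CPM on day 3, and 52.9, 42.9, 66.4 and 55.0 CPM on day 7. Srgap2 was at 99.4, 118, 108 and 115 CPM in healthy LSECs, 60.4 and 71.7 CPM on day 1, 42.6, 52.1, 111 and 154.5 CPM on day 3, and 82.5, 95.9, 132 and 127 CPM on day 7. For both genes day 3 replicates 1 and 2 were the lowest of all 14 libraries, and replicates 3 and 4 were at or above the middle of the healthy range. Srgap2 on day 1 had a log2 fold change of -0.74 ± 0.42 (edgeR adjusted p = 0.405), with both libraries below the healthy ones. On day 3 the log2 fold changes were -0.20 ± 0.28 for Srgap1 (edgeR adjusted p = 0.734) and -0.29 ± 0.33 for Srgap2 (edgeR adjusted p = 0.664). Limma-voom called both lower on day 3, at -0.81 (adjusted p = 0.0115) and -1.05 (adjusted p = 0.0036). It called 7265 of 26626 genes on day 3, against 1915 in edgeR. Without day 3 replicates 1 and 2 both were above 0, at 0.27 and 0.24. On day 7 the difference of Srgap2 was -0.01 ± 0.33 (edgeR adjusted p = 0.993) and its sign turned with RLE or library size scaling. Srgap1 shares 131 exon bases, 1.43% of its exons, with the predicted gene Gm48804 on the same strand, and no other member shares exon bases with another annotated gene.

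The libraries high in Robo2, Slit3 and Ntn1 were also high in markers of stellate cells, the vitamin A storing cells that lie against LSECs. The summed CPM of 15 stellate cell markers was 326 to 527 in healthy LSECs, 376 to 457 on day 1, 1027 to 2902 on day 3 and 684 to 7975 on day 7. All 15 markers were at or above the floor of 3 counts in every library of days 3 and 7, and Ngfr was the 1 below it in some healthy and day 1 libraries. On day 3, 11 of the 15 lay above every healthy library and 4 overlapped (Ecm1, Colec11, Pth1r and Ngfr), and on day 7 these numbers were 9 and 6. On day 1 the sum hid opposite moves, as Hgf lay above every healthy library (143 and 254 against 26.0 to 33.9 CPM) and 9 markers, Dcn, Col3a1 and Pdgfrb among them, lay below. The collagen gene Col1a1 was at 1.82 to 4.41 CPM in healthy LSECs and 21.3 to 1214 CPM on day 7, and the receptor gene Pdgfrb at 1.69 to 2.53 and 3.14 to 68.5 CPM, while Ecm1 was at 122 to 192 and 140 to 230 CPM. On day 7 the replicates had the same order by the stellate sum as by Robo2, by Slit3 and by Ntn1, from replicate 2 as the highest over 4 and 3 to replicate 1. On day 3 that held for Ntn1 and not for Robo2 or Slit3, although replicate 4 was highest in all 4 measures. In healthy LSECs the library with the highest stellate sum, replicate 4, had the highest Robo2 and the lowest Ntn1.

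Set against the stellate sum, the 3 genes differed. Ntn1 was at 3.00 to 6.32 CPM per 1000 CPM of the stellate markers in healthy LSECs, 3.94 to 4.78 on day 3 and 2.36 to 4.94 on day 7, and these ranges overlapped. Slit3 was at 0.433 to 1.01 in healthy LSECs, 0.397 to 0.900 on day 3 and 0.762 to 2.07 on day 7, with overlap as well. Robo2 was at 1.56 to 2.15 in healthy LSECs, 5.55 to 12.9 on day 3 and 4.85 to 5.68 on day 7, and its later ranges lay above the healthy one. These ratios depend on the markers summed, and Dcn weighs heavily in them. Dcn was at 101 to 200 CPM in healthy LSECs. The sum there was 326 to 527 CPM, or 162 to 301 CPM without Ecm1 and Hgf. The medians of Dcn were 131, 613 and 794 CPM in healthy LSECs and on days 3 and 7. Col1a1 had medians of 2.03, 62.6 and 217 CPM in the same order, and Col3a1 14.6, 198 and 472 CPM. Those of Ecm1 were 145.5, 134 and 166 CPM. Whether Robo2 rose more than single stellate markers was not tested. Ecm1 and Hgf made up 39.9% to 50.4% of the sum in healthy LSECs and 68.7% and 78.0% on day 1. Their share was 8.17% to 19.1% on day 3 and 3.93% to 30.6% on day 7. With both left out, a choice made after seeing the data, Robo2 was at 2.92 to 3.76 CPM per 1000 CPM in healthy LSECs, 6.56 to 15.3 on day 3 and 5.04 to 8.19 on day 7, still above the healthy range. On day 1 Robo2, at 1.72 and 2.53 with both included, was then at 5.48 and 11.5, also above its healthy range. The other genes did the same on day 1. Ntn1, at 2.89 and 4.61 with both included, was then at 13.1 and 14.7. Slit3, at 0.386 and 1.08 with both included, was then at 1.75 and 3.45. Ntn1 was then at 5.24 to 10.5, 4.29 to 5.90 and 2.70 to 5.53 in healthy LSECs and on days 3 and 7, and Slit3 at 0.872 to 1.68, 0.452 to 1.04 and 0.856 to 2.98, with overlap at both times. The part of stellate cell RNA in the rises of these genes was not tested. The summed CPM of 11 monocyte and neutrophil markers was 622 to 1629 in healthy LSECs, 4567 to 8497 on day 1, 1684 to 14350 on day 3 and 4542 to 10230 on day 7. All 11 lay above every healthy library on day 1, 4 on day 3 and 7 on day 7, and Lyz2 alone stood for 3919 to 9304 CPM on day 7, where Ly6c2, S100a8, S100a9 and Plac8 overlapped the healthy libraries. Hepatocyte markers, 10 genes, summed to 181, 242, 356 and 7935 CPM in healthy LSECs, 33.3 and 138 on day 1, 842 to 2946 on day 3 and 761 to 6185 on day 7. On days 3 and 7 these sums lay above 3 of the 4 healthy libraries and below replicate 4. The part of these cells in the rises of Robo2, Ntn1 and Slit3 was not tested.

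**Figure D4:**
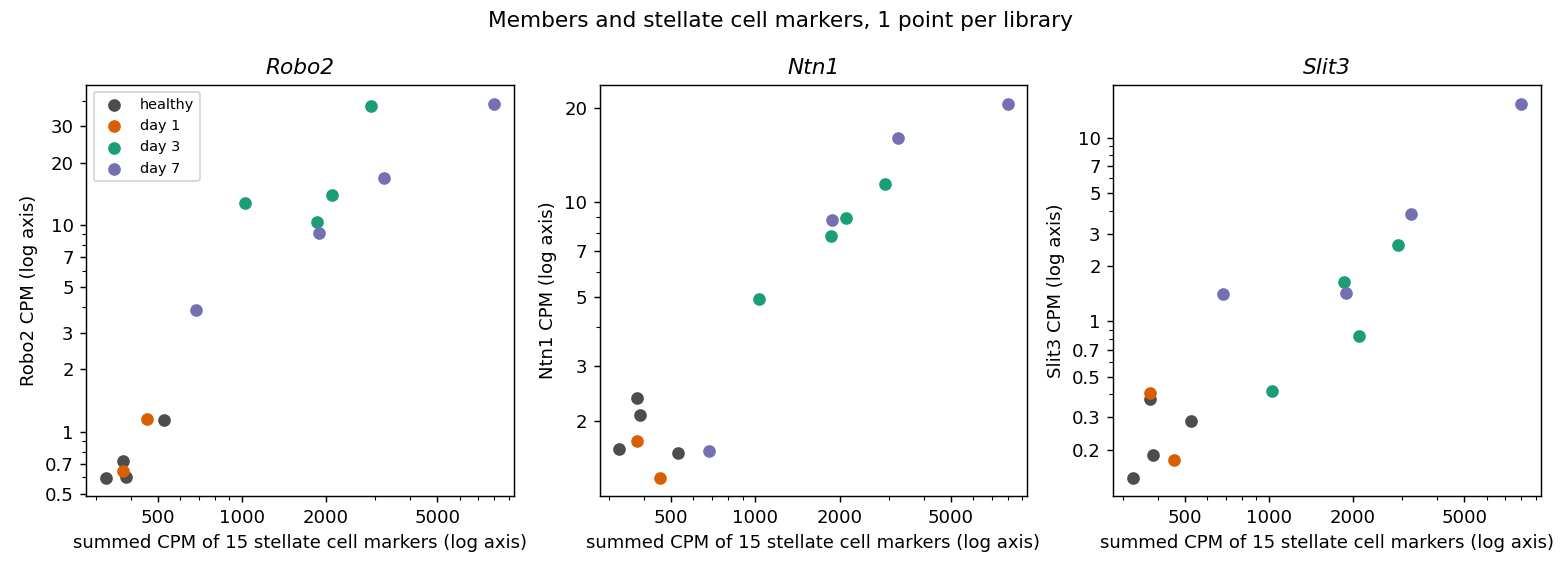
CPM of Robo2, Ntn1 and Slit3 against the summed CPM of 15 stellate cell markers (both axes log), 1 point per library, coloured by group. Day 7 replicate 2, with a sum of 7975 CPM, is the farthest right and has the highest value of each gene, and healthy and day 1 libraries lie together at sums of 326 to 527 CPM.

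Other genes of the guidance system were tested beside the same shares of all genes as above, 4.06%, 7.19% and 3.18% on days 1, 3 and 7. Of 12 further Slit and Robo genes 11 were tested, and 1 fell on day 1, 1 on day 3 and none passed on day 7, where 2 were under an unadjusted p of 0.05, beside 21.1% of all genes. Their median log2 fold change was -0.35, -0.07 and -0.15 on days 1, 3 and 7. Gpc1, a glypican that binds Slits, fell on day 1 by 2.23 ± 0.49 on the log2 scale (edgeR adjusted p = 0.0202), from 26.2 to 40.4 CPM in healthy LSECs to 5.81 and 7.59 CPM. That call was lost without day 1 replicate 1 (edgeR adjusted p = 0.253), day 1 replicate 2 (0.207) or healthy replicate 4 (0.0508), and Gpc1 shares exon bases with Ankmy1 on the opposite strand. Usp33, a deubiquitinase that binds Robo1, fell on day 3 by 0.95 ± 0.19 (edgeR adjusted p = 0.00953), from 22.0 to 25.8 CPM to 10.6 to 14.9 CPM, and passed in all 14 fits that left out 1 library, with exon bases shared with predicted genes on the opposite strand. Slit1 and Robo3, the remaining ligand and receptor, stayed at or below 1.36 and 1.51 CPM.

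Of 13 further netrin genes with counts listed, 10 were tested, and Ntn5 was the 1 that passed. The median log2 fold change of these 10 was 0.09, 1.28 and 0.90 on days 1, 3 and 7. It rests partly on genes of low level. Ntn5, Unc5c, Unc5d, Rgma and Draxin averaged 0.122 to 0.685 CPM over the 14 libraries. Their standard errors on day 3 were 0.52 to 1.94 on the log2 scale. Ntn5 rose on day 1 by 4.66 ± 1.10 on the log2 scale (edgeR adjusted p = 0.0292) and on day 3 by 3.97 ± 1.00 (edgeR adjusted p = 0.0302). Its counts were 0 to 20 in healthy LSECs, 146 and 178 on day 1 and 52 to 136 on day 3. There was no count in 2 of the healthy libraries. The day 1 call was lost without healthy replicate 3 (edgeR adjusted p = 0.0732) or either day 1 replicate (0.177 and 0.105), and the day 3 call without healthy replicate 2 or 3 (0.0583 and 0.0780), day 1 replicate 1 or 2 (0.0515 and 0.0521) or day 3 replicate 2 (0.0715). Both were lost in fits of only the 2 groups compared (edgeR adjusted p = 0.0637 and 0.105), and the day 3 call, at 3.08, without day 3 replicates 1 and 2 (0.0913). Ntn5 shares 519 of its 2216 exon bases with Sec1 on the opposite strand. Whether counting used the strand is not given, so reads over these shared bases cannot be told apart. The netrin receptor gene Dcc was at 0 to 0.194 CPM over all libraries. Unc5a, another UNC5 receptor, was at 8.54 to 12.1 CPM in healthy LSECs and at 3.21 and 4.12 CPM on day 1, a difference that did not pass (edgeR adjusted p = 0.254).

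Of 25 cytoskeletal effectors of guidance receptors, none passed on day 1 or day 7, and 2 fell on day 3. An unadjusted p under 0.05 was found for 7, 6 and 7 of the 25 on days 1, 3 and 7, beside 17.9%, 22.2% and 21.1% of all genes. The medians of the 25 genes were 0.07, -0.08 and -0.09 on the log2 scale. The genes that fell were the adaptor gene Nck1, by 0.94 ± 0.23 on the log2 scale (edgeR adjusted p = 0.0283), and the kinase gene Fyn, by 0.88 ± 0.25 (edgeR adjusted p = 0.0465). The Nck1 call was lost without healthy replicate 1, 2 or 3 (edgeR adjusted p = 0.0750, 0.0721 and 0.0652). The Fyn call was kept in 4 of the 14 fits that left out 1 library, those without day 3 replicate 3 or 4 or day 7 replicate 1 or 2, over adjusted p of 0.0146 to 0.117. It was also lost by library size alone (edgeR adjusted p = 0.136), in the fit of only the 2 groups (0.105) and, at -0.50, without day 3 replicates 1 and 2 (0.122). Pathway databases also place proteasome subunits and ribosomal proteins under the regulation of Slit and Robo expression. Of 39 proteasome subunits 1, Psmb9 of the immunoproteasome, passed on day 1 (2.83-fold lower, edgeR adjusted p = 0.0223, exon bases shared with Tap1), and none passed on day 3 or day 7. Under an unadjusted p of 0.05 were 12, 2 and 21 of the 39 on days 1, 3 and 7, beside 17.9%, 22.2% and 21.1% of all genes. Of 79 cytosolic ribosomal protein genes 2 rose on day 1, 3 on day 3 and none passed on day 7, and 16, 29 and 1 of the 79 were under an unadjusted p of 0.05. Rps2 rose by 1.21 and 0.99 on the log2 scale on days 1 and 3, Rpsa by 1.19 and 1.42, and Rpl10a by 1.29 on day 3, a call of Rpl10a that was kept in 3 of the 14 fits that left out 1 library and lost with no filter on low counts (edgeR adjusted p = 0.0844), in the fit of only the 2 groups (0.0954) and without day 3 replicates 1 and 2 (0.248). Without day 1 replicate 1 the day 1 calls of Psmb9, Rps2 and Rpsa were lost (edgeR adjusted p = 0.309, 0.183 and 0.245). That of Psmb9 was also lost without day 1 replicate 2 (0.0736 in edgeR) or healthy replicate 1 (0.0562), and that of Rpsa without day 1 replicate 2 (0.118), healthy replicate 1 (0.0567) or 2 (0.0534), or with no filter on low counts (0.0533). The day 3 call of Rps2 was lost without healthy replicate 4 (0.0520). Counts of ribosomal protein genes are uncertain because many near-identical pseudogenes can share their reads. The medians of the ribosomal genes were 0.60, 0.71 and -0.07 on days 1, 3 and 7, and those of the proteasome genes 0.54, 0.15 and -0.57.

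The genes whose log2 CPM followed the main member of each role most closely over the 14 libraries were searched among the tested genes with a mean of at least 1 CPM. For Robo4 they were Galnt2, Armc6 and Scarf1 (Pearson r 0.95 for each), of which Scarf1 encodes an endothelial scavenger receptor. For Slit3 they were Cyp1b1 (0.97), Gm38211 (0.95) and Cpxm1 (0.94). For Unc5b they included Lig3 and Lmna (0.82 and 0.81), lower than for the other members. For Ntn4 they were Tk2, E4f1 and Zscan21 (0.92, 0.89 and 0.88), and for Srgap2 they were Fto, Phlpp1 and Mfhas1 (0.98, 0.97 and 0.96). Robo2 and Ntn1 were added after their values were seen. Robo2 was nearest to Fstl1, Mrc2 and Pcdh7 (0.98 for each), and Ntn1 to Pdgfrb, Adamts2 and Hand2 (0.98, 0.97 and 0.97). All of these share the 14 libraries and their differences in depth and cell make-up, so the correlations are a description.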

How the data were processed

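RNA of FACS-sorted mouse LSECs was sequenced in 14 libraries of 4 groups, taken from the labels. Reads had been aligned to GRCm38.p6 by STAR and assembled by StringTie, and the authors deposited raw counts, 1 whole number per Ensembl gene and library. The annotation release and the use of strand are not given in the sources used here, and the methods describe the sequencing both as paired-end and as single-end. GENCODE vM21 held 54495 of the 54524 IDs and gave symbols, loci and transcript lengths.

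Low counts were removed by filterByExpr (at least 10 counts in enough libraries, 15 in total), libraries were scaled by TMM, and 1 model of the 4 group means was tested by glmQLFTest of edgeR 4.0.16 (R 4.3.3). P-values were adjusted by Benjamini-Hochberg over 26626 genes, with a threshold of 0.05. Standard errors are the absolute log2 fold change over the root of F. The 95% intervals are built from them with the normal quantile, so they are narrower than the F-test allows with so few libraries. The procedure was tested on simulated data. DESeq2 (1.42.0), voom of limma (3.58.1), other scalings and filters, pairwise models, a replicate block and left-out libraries were the alternatives. CPM per kilobase uses the transcript with the longest coding sequence, and log2 CPM adds a prior count of 2. Named genes were all 10 members, at most the 3 called genes of smallest p per pathway list and comparison with healthy LSECs, and the 3 genes nearest to the member of each role with the highest mean CPM, of which 1 is not reported here. Members, lists and tests were chosen with earlier results of these data known.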

Additional observations from a re-analysis of the deposited data

Results flagged for a closer look

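Robo2 in day 3 replicate 4 was at 37.6 CPM, while the other day 3 libraries were at 10.3 to 13.9 CPM, a gap that passed Dixon's 95% limit. The same library had the highest value of its group for 9 of the 10 genes and the lowest for Slit2. Slit2 in healthy replicate 1 was at 0.749 CPM against 0.411 to 0.468 CPM in the other healthy libraries, which also passed that limit at 35 to 75 counts per library. In all, 30 groups of 4 libraries were examined, and chance alone flags about 1 group in 20.

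A difference in Robo2 between the day 1 and day 3 libraries, of 4.37 on the log2 scale, passed (edgeR's quasi-likelihood test, adjusted p = 0.0248). It was lost without day 1 replicate 1 (edgeR adjusted p = 0.362) or day 1 replicate 2 (edgeR adjusted p = 0.222), each of which left day 1 with a lone library that was assumed to vary like the other groups.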

How the results depend on the processing

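The rises of Robo2 on days 3 and 7 passed under each alternative run. EdgeR called 0, 3 and 3 members on days 1, 3 and 7, 1 from day 1 to 3 and 0 from day 3 to 7. Limma-voom called 2, 7, 6, 2 and 4, beside 4308, 7265, 7047, 3344 and 6002 of the 26626 genes tested. EdgeR called 1080, 1915, 846, 676 and 472 of these genes. The fits of only the 2 groups compared called 2 on day 1, 6 on day 7 and 0 from day 1 to 3. Of all genes they called 2327 of 22771, 3156 of 21591 and 189 of 24788. DESeq2 called 2 from day 1 to 3, beside 2408 of 26626 genes. Without day 3 replicates 1 and 2, an alternative added after seeing the data, 1 was called on day 1, 1 on day 3, 3 from day 1 to 3 and 1 from day 3 to 7. Of 24856 genes, 1952, 2417, 1923 and 638 were called in these comparisons. Leaving out 1 library gave 0 on day 1, 1 to 4 on day 3, 1 to 3 on day 7, 0 to 2 from day 1 to 3 and 0 to 1 from day 3 to 7. The single calls came without healthy replicate 1, 2 or 3, the 0 from day 1 to 3 without either day 1 replicate, the 2 without day 7 replicate 1, and the 1 from day 3 to 7 without day 3 replicate 4. Where 1 library was left on day 1, it was assumed to vary like the other groups.

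With a replicate block 1 member, Robo2, was called on day 3, and Slit3 and Srgap1 on day 1 turned to -0.053 and 0.11 on the log2 scale. Deviations of samples with the same number correlated at -0.232 to 0.0962. With so few libraries per group this cannot decide whether the numbers pair samples, which the labels do not say. The block called 594, 1385, 435, 311 and 244 of all genes.

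Among differences that did not pass, the log2 fold change of Srgap2 on day 7 turned to 0.023 with RLE scaling or DESeq2, 0.053 by library size alone, 0.077 with at least 10 counts in every sample and 0.045 in limma-voom, and ran from -0.089 to 0.089 with 1 library left out. Robo1 on day 3 turned to -0.057 with no filter and -0.38 in limma-voom (-0.33 to 0.27 with 1 library left out). Slit2 on day 1 turned to 0.059 and Robo2 from day 3 to 7 to 0.28 in limma-voom. Without day 3 replicates 1 and 2, the day 3 values turned to 0.23 for Robo4, -0.29 for Slit2, 0.27 for Srgap1 and 0.24 for Srgap2. On day 1, leaving out 1 library gave -0.27 to 0.56 for Robo2, -0.23 to 0.19 for Slit2, -0.52 to 0.69 for Slit3 and -0.54 to 0.03 for Ntn4, and from day 3 to 7 it gave -0.90 to 0.57 for Robo2. The cause was not tested.

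All genes called numbered 1080, 1915, 846, 676 and 472 in the same order, 2839, 3791, 2714, 2408 and 1783 by DESeq2, 4308, 7265, 7047, 3344 and 6002 by limma-voom, 2327, 1108, 3156, 189 and 1 in the fits of 2 groups, and 1952, 2417, 2306, 1923 and 638 without day 3 replicates 1 and 2. Leaving out 1 library gave 164 to 1845, 946 to 3314, 193 to 2166, 49 to 932 and 26 to 1652. From day 3 to 7 they were 287 by library size alone and 157 with no filter. Higher calls made up 64.2% on day 3 and 68.8% on day 7, and 75.1% and 86.8% by library size alone. Slit2 and Slit3 rested on as few as 3 and 12 counts in a library, which limits the precision of their values.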

Other observations

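Between pairs of members over the 14 libraries, the highest Pearson correlations of log2 CPM were those of Robo2 with Ntn1 (0.91), Srgap1 with Srgap2 (0.88), and Slit3 with Ntn1 (0.85) and with Robo2 (0.85). The lowest was that of Robo4 with Slit2 (-0.79). All pairs share libraries, depth and cell make-up, so these values are a description.

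Hepatocyte markers were highest in healthy replicate 4, with a summed CPM of 7935 against a healthy median of 299. Robo1, Ntn1 and Ntn4 had their lowest healthy value in that library, at 32.6, 1.58 and 224 CPM, and Robo2 and Robo4 their highest, at 1.13 and 383 CPM. Slit2, Slit3, Unc5b, Srgap1 and Srgap2 lay within the range of the other healthy libraries. Healthy replicate 4 also had the highest stellate sum of its group, 527 CPM. A link of these values with the hepatocyte markers was not tested.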
